A study of Mus musculus with 16 samples.

Results

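Nuclei of differentiating oligodendrocyte precursors, the cells between the dividing precursor and the myelinating oligodendrocyte, were examined in single-nucleus RNA sequencing of the mouse hippocampus. They were chosen by their transcripts: a nucleus held UMIs (unique molecular identifiers, counted as molecules) of at least 2 of Gpr17, Bmp4, Enpp6 and Neu4, at least 1 UMI of Sox10, and none of Pdgfra, Csf1r, Gad2 or Slc17a7. Of 118205 nuclei that passed the limits on genes and mitochondrial UMIs, 246 met the rule (0.208%), and these were 2.215% of the 11106 nuclei with a Sox10 UMI. The values of those 9 genes chose the nuclei, so they are given as a description and not tested.

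Oligodendrocyte precursors express the PDGF receptor Pdgfra and can divide. When they leave the cycle they switch it off and pass through a brief stage marked by the receptor Gpr17 and the secreted factor Bmp4, and then by the choline phosphodiesterase Enpp6, before myelin genes rise. In the adult brain only a small share of the lineage is in this stage at any time. Type I interferon signals through the receptor chains Ifnar1 and Ifnar2 to transcription factors, Stat2 and Irf9 among them, that switch on interferon-stimulated genes.

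The 16 libraries came from 16 male mice in 4 groups of 4. Wild-type (WT) C57BL/6 mice aged 2 months and 23 days received vehicle or DMXAA, an agonist of mouse STING that leads to type I interferon. Ifnar1-/- mice (KO), which lack this receptor chain in the whole body and not in a chosen cell type, were aged 3 months and 3 days and received the same agents by repeated injection. Genotype therefore coincided with age and with the cohort, and their parts in a difference between WT and KO cannot be told apart.

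The nuclei were few: 73 in WT vehicle, 67 in WT DMXAA, 41 in KO vehicle and 65 in KO DMXAA, with 7 to 24 in a library. They held 1288267 UMIs in all, 39723 to 127314 in a library, with a median of 4914 UMIs and 2055 genes in a nucleus. Each group had a library of fewer than 20 nuclei, so levels are given pooled over the 4 libraries of a group beside the values by library. CPM gives the UMIs of a gene per 1000000 UMIs of the same nuclei. Of all barcodes 3033 occurred in more than 1 library. No barcode belonged to a differentiating nucleus in more than 1 library, and whether these nuclei carried any of the 3033 was not checked. WT DMXAA library 3 stood apart from the rest of its group: Malat1 made up 2.11% of the UMIs of its differentiating nuclei against 6.53% to 8.47% in the other 3, and 11 neuron markers summed to 726.6 per 100000 UMIs against 126.5 to 192.7.

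The rule selected nuclei with several of its 4 genes. Gpr17 was detected in 82.9% of them, Enpp6 in 80.1%, Neu4 in 64.2% and Bmp4 in 57.3%. In Slc17a7 nuclei, excitatory neurons that should lack all 4, the shares were 0.291%, 0.558%, 0.106% and 0.102%, although their median depth was 9553 UMIs. All 4 genes were found together in 71 nuclei (28.9%), Gpr17 with Enpp6 alone in 44, and Gpr17 with Neu4 alone in 26. Just inside the rule, 109 nuclei held 2 of the 4 genes. Just outside it, 1511 nuclei held 1, with a median of 2834 UMIs, and 305 passed but for a UMI of Pdgfra.

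The neighbouring stages were taken from the same libraries. Pdgfra nuclei (1487, with Sox10 and Pdgfra) stood for precursors, and mature nuclei (6527, with Sox10 and at least 2 of Mog, Mag, Mal and Opalin) for myelinating cells. Single defining genes were also found there, with Neu4 in 31.3% and Gpr17 in 19% of Pdgfra nuclei and Enpp6 in 19.4% of mature nuclei. The other shares in these classes were at most 1.08%. Differences from these classes follow from how the nuclei were chosen and are described without a test. A list of 28 genes of committed and newly formed oligodendrocytes summed to 4805 per 100000 UMIs in the differentiating nuclei, 407.1 in Pdgfra nuclei and 384.7 in mature nuclei. A list of 28 myelin and mature genes lay between, at 1451 against 214.7 and 3203. The 20 precursor genes summed to 2965, against 4143 in Pdgfra nuclei and 186.5 in mature nuclei. In the nuclei with 2 defining genes the committed list stood at 5188 per 100000, and in those with 1 at 712, where the myelin list reached 3176. Mature nuclei could hold 1 defining gene, and the 1264 of them with Enpp6 are also among the 1511 nuclei with 1. The 26 nuclei with neither Bmp4 nor Enpp6, which held Gpr17 and Neu4, went against the name: their committed genes summed to 945.2, their precursor genes to 3780 and their myelin genes to 250.1, nearer to Pdgfra nuclei than to the differentiating nuclei as a whole. The 23 nuclei with Bmp4 and no Enpp6 were also nearer to Pdgfra nuclei, at 1752, 3782 and 359.7. At the other end, 9 of the 246 nuclei held more UMIs of the myelin list than of either other stage list.

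Of the 28 committed genes, 25 were above their level in Pdgfra nuclei and 25 above that in mature nuclei. Frmd4a, a scaffold protein gene of the FERM family (GRCm38, chromosome 2, 4017717 to 4614043), was counted at 15380 CPM, against 242.2 in Pdgfra nuclei and 434.4 in mature nuclei. The kinase gene Fyn was at 4786, against 372.8 and 149.4. Bcas1, known in early myelinating cells, was at 4605, against 459.6 and 759.4. For each of these 3 genes the differentiating nuclei exceeded both classes in 16 of 16 libraries. Tcf7l2, a transcription factor that acts with Wnt signals in differentiation, was at 2259 CPM, against 163.4 and 112. Itpr2, a calcium channel gene of the endoplasmic reticulum, was at 2082 against 572.5 and 39.99.

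Precursor genes did not all lie on 1 side. Lhfpl3 was at 1734 CPM against 7765 in Pdgfra nuclei, Pcdh15 at 878.7 against 4278 and Nxph1 at 914.4 against 2877, each lower in 16 of 16 libraries. Tnr, the matrix protein tenascin-R, was higher, at 11830 against 4888, as was the transcription factor gene Sox6 at 3082 against 2026. In mature nuclei Tnr was at 98.3 and Sox6 at 40.97. Dscam and Luzp2 were at 3553 and 2202 against 4392 and 2146. Among myelin genes, Mbp (myelin basic protein) was at 3207 against 193.2 in Pdgfra nuclei and 4332 in mature nuclei. Nfasc, the adhesion protein neurofascin, was above both, at 4400 against 239.5 and 1091.

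The nuclei could be ordered by Bmp4 and Enpp6. Of the 246, 26 held neither, 23 held Bmp4 without Enpp6, 118 held both and 79 held Enpp6 without Bmp4. From the 23 to the 79, Frmd4a went from 735.6 to 26010 CPM, Mbp from 260.2 to 5227, Nfasc from 672.8 to 7006, and Mag, a myelin adhesion protein, from 35.88 to 538.2. Over the same step Lhfpl3 went from 3570 to 787.6 and Pcdh15 from 2288 to 385.7, while Tnr was at 11940 and 11300. In all, 24 of 28 myelin genes and 23 of 28 committed genes were higher with Enpp6 alone than with Bmp4 alone, and 19 of 20 precursor genes were lower. The share over all genes was not taken for this or the other comparisons of stages. The nuclei with Bmp4 alone also held fewer UMIs, 111471 against 432945 with Enpp6 alone.

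**Figure D1:**
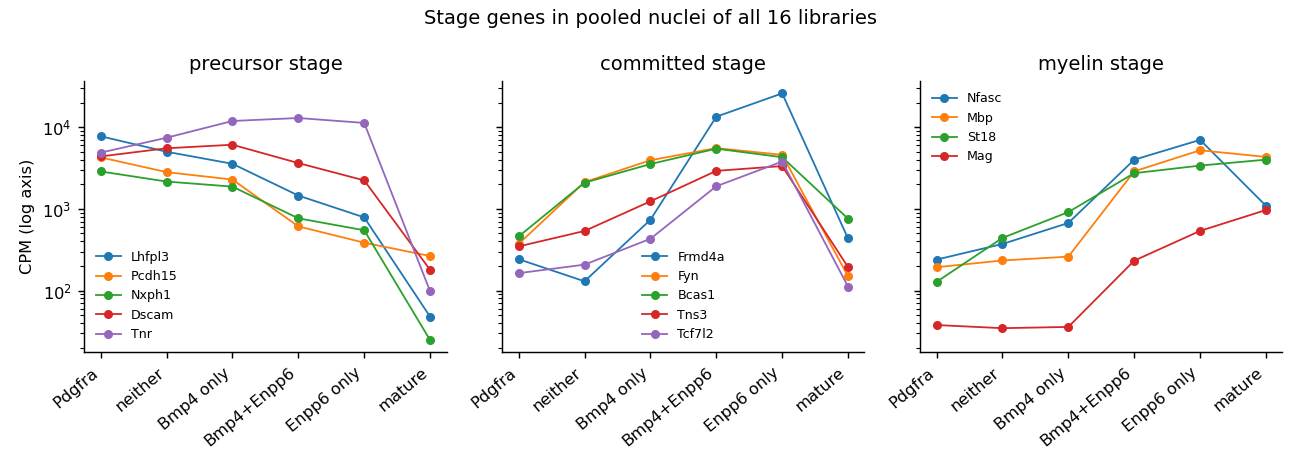
CPM (log axis) of 5 precursor, 5 committed and 4 myelin genes, in nuclei pooled over all 16 libraries, from Pdgfra nuclei through the 4 subsets of differentiating nuclei to mature nuclei. Frmd4a peaks in nuclei with Enpp6 alone, Lhfpl3 declines along the axis and Mbp climbs to 5227 with Enpp6 alone, above the 4332 of mature nuclei.

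Regulators of the lineage were not uniformly higher. Of 22, 12 were above and 10 below their level in Pdgfra nuclei. The RNA-binding protein gene Qk was at 5132 CPM against 1711 in Pdgfra nuclei and 3949 in mature nuclei, and Zeb2, a factor needed for myelination, at 3042 against 885.5 and 2511. Myrf, the transcription factor that switches on myelin genes, was at 142.1 against 15.49 and 175.8, and Nkx2-2 at 136.6 against 51.94 and 23.15. Tcf4 was at 1605 against 1732 and 1054, and Zfp536 at 572.1 against 391.7 and 2456. Myrf was not counted in the 26 nuclei without Bmp4 and Enpp6 and reached 207.9 CPM in those with Enpp6 alone, while Nkx2-2 was at 179.4 with Bmp4 alone and 60.05 with Enpp6 alone.

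Genes outside the 3 stage lists also set the nuclei apart. Ifnar2, the partner chain of Ifnar1 in the interferon receptor, was at 123.4 CPM against 32.96 in Pdgfra nuclei and 17.06 in mature nuclei, and was above the former in 15 and above the latter in 16 of 16 libraries. Tcf7l1, a repressor of Wnt targets, was at 426.9 against 75.93 and 33.2, and went from 80.74 with Bmp4 alone to 757.6 with Enpp6 alone. Of 22 Wnt and BMP pathway genes it was 1 of 6 above their level in Pdgfra nuclei, as was Smad7, an inhibitor of BMP signalling, at 117.2 against 37.36. The BMP receptor genes Bmpr1a and Bmpr2 were at 100.9 and 100.1, against 127.3 and 137.9. Bcl2, which restrains apoptosis, was at 9.315 CPM against 97.5 in Pdgfra nuclei. It was 1 of 13 survival and apoptosis genes, of which 6 were above and 6 below their level in Pdgfra nuclei. The 13 summed to 31.83 per 100000 UMIs, against 36.01 in Pdgfra nuclei and 68.27 in mature nuclei. Of 18 cholesterol synthesis genes, 16 were above their level in Pdgfra nuclei, among them Fdft1, the gene of squalene synthase, at 52.01 against 17.62 CPM, but 12 of the 18 were below their level in mature nuclei. Of 17 cell cycle genes, 16 were below their level in Pdgfra nuclei and 9 below that in mature nuclei, though only 2 of the 17 had over 10 UMIs and 4 had none. Among the genes compared across stages, Tcf7l2, Itpr2, Lhfpl3, Pcdh15, Nxph1, Mag, Myrf, Nkx2-2 and Bcl2 were picked with their values known, and the others by the naming rule.

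The first comparison asked whether DMXAA or the receptor changed how many such nuclei there were. In WT vehicle there were 15.9, 24.9, 30.4 and 18.8 differentiating nuclei per 10000 kept, and in WT DMXAA 24.2, 20.3, 11.7 and 28.6. The means were 22.5 ± 6.48 and 21.2 ± 7.18 (SD, n = 4 each), and the groups overlapped. In KO vehicle there were 14.5, 10.8, 22.2 and 14.7 per 10000, and in KO DMXAA 20.1, 21.6, 27.1 and 28.6, with means of 15.6 ± 4.79 and 24.4 ± 4.12. The KO groups overlapped through KO vehicle library 3.

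None of these differences passed the test. In WT, DMXAA minus vehicle was -1.34 per 10000 (95% interval -18.6 to 12.6, exact permutation test over libraries, two-sided, p = 0.771, adjusted p = 0.771 over 6 comparisons). Without WT DMXAA library 3 it was 1.82, and without WT vehicle library 3 it was 1.295. It was -0.0393 with called doublets removed and 0.325 with nuclei thinned to 1000 UMIs. In KO it was 8.81 (-2.06 to 17.8, exact permutation p = 0.0857, adjusted p = 0.429). It was 1.63 for nuclei with at least 3 of the 4 defining genes, 3.29 with nuclei thinned to 1000 UMIs and 30 where Pdgfra was allowed. Each setting kept another number of nuclei, so these absolute differences, here and below, have unlike bases. Thinning left 0 to 2 differentiating nuclei in a KO vehicle library and 1 to 5 in a KO DMXAA library. KO vehicle minus WT vehicle was -6.98 (-19.6 to 6.23, exact permutation p = 0.143, adjusted p = 0.429). It was -2.30 with at least 3 of the 4 genes, -3.17 with nuclei thinned to 1000 UMIs, -18.3 with Pdgfra allowed and -4.34 without WT vehicle library 3. The intervals invert the permutation test, whose smallest p with 4 against 4 is 0.0286. Over 6 comparisons a lone difference cannot go below an adjusted p of 0.171, so missing the threshold says little.

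The nuclei were also related to the precursors they derive from. Per 100 Pdgfra nuclei there were 15.3 ± 3.27 in WT vehicle and 17.3 ± 4.19 in WT DMXAA, 16.2 ± 4.75 in KO vehicle and 18.9 ± 1.74 in KO DMXAA (SD, n = 4 each). The difference was 2.08 in WT (95% interval -4.94 to 10.8, exact permutation p = 0.457, adjusted p = 0.686) and 2.69 in KO (-4.79 to 8.45, exact permutation p = 0.371, adjusted p = 0.686). Leaving out 1 library gave 0.591 (without WT DMXAA library 3) to 3.34 (without WT DMXAA library 2) in WT and 1.33 (without KO vehicle library 2) to 4.42 (without KO vehicle library 3) in KO. With at least 3 of the 4 genes the KO value was -1.49, and thinned to 1000 UMIs the WT value was 17.2. The thinned WT value rested on WT DMXAA library 3, where 4 differentiating and 5 Pdgfra nuclei were left. WT DMXAA libraries 1, 2 and 4 kept 3 to 5 differentiating and 37 to 59 Pdgfra nuclei. Between the vehicle groups the difference was 0.909 (-6.47 to 10.4, exact permutation p = 0.771, adjusted p = 0.771). This turned to -1.70 with Pdgfra allowed, and to -0.534, -0.0535 and -0.815 without WT vehicle library 1, KO vehicle library 1 and KO vehicle library 3. A share of sorted nuclei does not give the number of cells in the tissue.

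**Figure D2:**
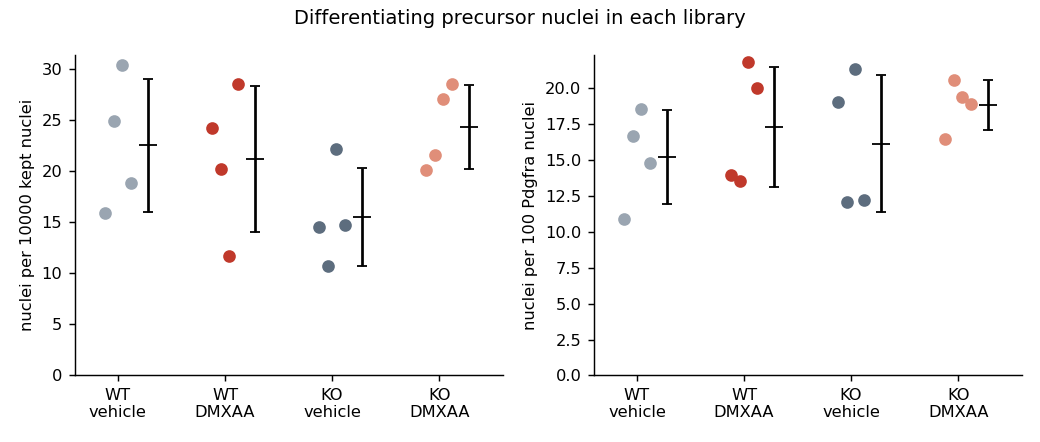
Differentiating nuclei per 10000 kept nuclei (left) and per 100 Pdgfra nuclei (right), with 1 point a library and the mean and SD of 4 libraries in black. The groups overlap in both measures, and the lowest WT DMXAA point on the left, 11.7, is library 3.

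The second comparison asked whether the nuclei answered DMXAA with interferon-stimulated genes. Over 66 such genes, the UMIs summed to 39.6, 29.3, 33.7 and 44 per 100000 in WT vehicle and to 138.1, 117.1, 78.4 and 96.6 in WT DMXAA. All 4 DMXAA libraries lay above all 4 vehicle libraries, and the pooled level was 109.8 against 36.1, or 3.04 times as high (3.21 without WT DMXAA library 3). In KO vehicle the sums were 13.2, 12.6, 24 and 17.8 and in KO DMXAA 22.4, 19.7, 14.3 and 20.4, which overlapped, and the pooled level was 1.03 times as high. All 4 KO vehicle libraries also lay below all 4 WT vehicle libraries. These sums carry no test.

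**Figure D3:**
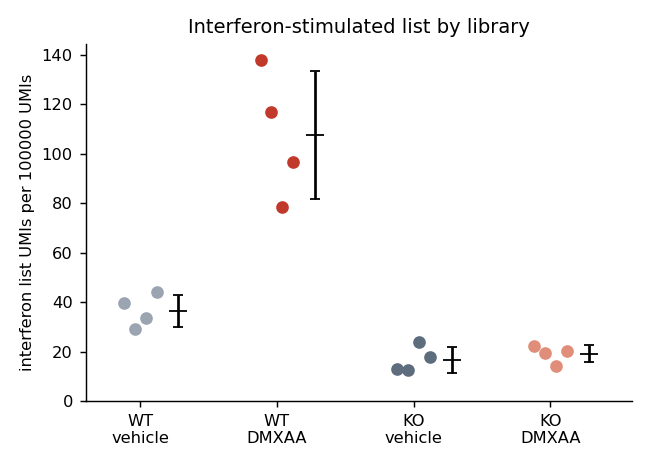
UMIs of the 66 interferon-stimulated genes per 100000 UMIs of the differentiating nuclei, with 1 point a library and the mean and SD of 4 libraries in black. WT DMXAA libraries lie at 78.4 to 138.1 and the other 12 at 12.59 to 44.02.

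The higher sums in WT DMXAA were spread over the list. In WT, 43 of the 66 genes had a higher pooled level with DMXAA, 4 a lower one and 19 no UMI in either group, where 49.9% of all genes with a UMI were higher. For 8 of the 66 all 4 DMXAA libraries exceeded all 4 vehicle libraries, against 0.801% of all genes. In KO, 16 were higher, 10 lower and 40 had no UMI, where 55% of all genes were higher, and the libraries were apart in that direction for 1 of the 66, Tor3a, against 1.34% of all genes. Its counts were 1 UMI in each KO DMXAA library and none with vehicle.

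Most of these genes were counted a few times only. Ddx60, a helicase of antiviral RNA sensing (GRCm38, chromosome 8, 61928087 to 62038244), had 13, 14, 5 and 6 UMIs in the WT DMXAA libraries and 0, 0, 1 and 0 in WT vehicle. It had none in any of the 8 KO libraries. The pooled ratio in WT was 43.3 (95% exact interval 7.31 to 1753, counting error only). Its fitted log2 change in WT was 4.92 ± 1.11 (SE), the lowest p of any gene in the WT fit, but edgeR's adjusted p was 0.839. The call turned on the setting. EdgeR called Ddx60 with no filter on low counts (adjusted p = 0.000252) and with Pdgfra allowed (edgeR adjusted p = 0.000261), and DESeq2 did not call it.

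The transcription factor genes Stat2 and Irf9 went from 26.94 to 52.13 and from 16.16 to 49.07 CPM in WT, and their libraries overlapped. WT DMXAA library 3 had no UMI of either.

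Further members showed the same order from very few counts. Ddx58, the RNA sensor RIG-I, had 2 UMIs in WT vehicle and 19 in WT DMXAA, a ratio of 10.8 (95% exact interval 2.61 to 95.7). Parp12, an antiviral ADP-ribosyltransferase, had 2 and 14, a ratio of 7.97 (1.83 to 72.2). Trim25, the ubiquitin ligase that activates RIG-I, had 2 and 10, a ratio of 5.69 (1.21 to 53.4). Oasl2 had no UMI in WT vehicle and 15 in WT DMXAA, at least 5.69-fold higher against a floor of 3 UMIs over the group, and Gbp3 had 0 and 10, at least 3.79-fold higher. Reads of Oasl2, Gbp3 and the Ifit genes can be shared with near copies. Adar, an RNA-editing enzyme gene, was lower with DMXAA in WT, at 43.11 and 33.73 CPM. Ifi27 was at 64.66 and 79.73 CPM in WT and at 9.127 and 2.689 in KO.

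**Figure D4:**
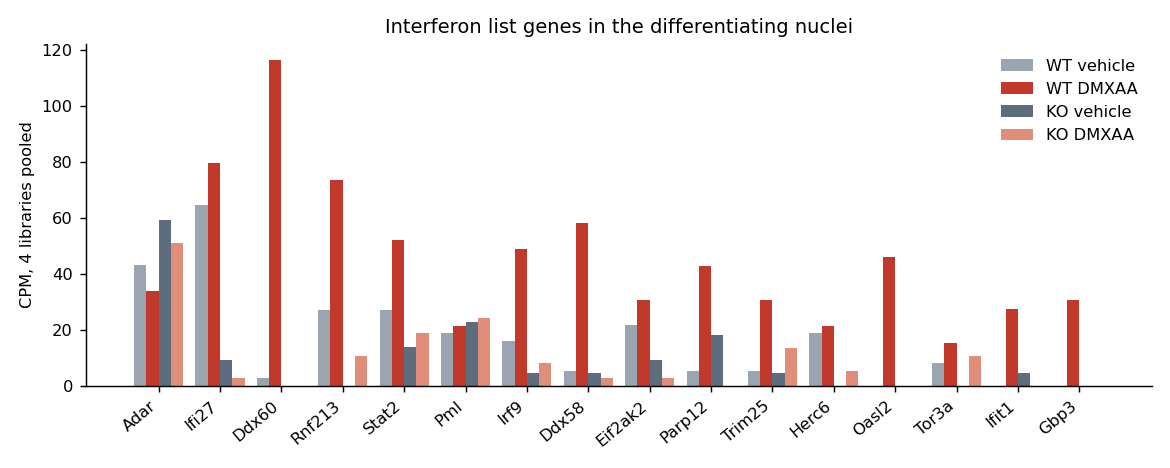
CPM in nuclei pooled over the 4 libraries of each group, for the 16 interferon-stimulated genes with the most UMIs in the differentiating nuclei among those reported here. Ddx60 stands at 116.5 in WT DMXAA and 2.694 in WT vehicle, and has no bar in either KO group.

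The promoters of some of these genes are shown because the genes were higher together. The letters GAAANNGAA, the core of the interferon-stimulated response element, were searched on both strands in RefSeq windows (GRCm38.p6) from 250 bases before to 50 bases after a start. They were present in 33 of 53 listed genes with a window (62.3%) and in 9.76% of 27025 genes. Of the 8 genes whose WT libraries were apart, 6 had a window and 4 of these held the motif. Of 8 matches in these 4 genes, 4 are printed, those that overlap no other once 10 flanking bases are added on each side. Capitals mark the motif or its reverse complement, each line reads 5′ to 3′ on the strand of the gene, positions count from the start, and all 3 genes lie on the plus strand. A match is a description of letters and not of binding.
Ddx60, motif at -53, chr8:61928024-61928052: gtgatgaatgGAAACCGAAacttaaagct
Ddx60, motif at -19, chr8:61928058-61928086: gagcagaagaGAAACCGAAactatccttc
Ifit3, motif at -155, chr19:34583364-34583392: agtggtaagtTTCACTTTCctcttctggt
Trim25, motif at -9, chr11:88999384-88999412: gcccctcctgTTCAGTTTCgattccttcc

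The neighbouring stages were higher in the same direction. The 66 genes went from 36.77 to 161.3 per 100000 UMIs in WT Pdgfra nuclei, 4.39 times, and from 26.58 to 73.55 in WT mature nuclei, 2.77 times. The rise was not limited to this lineage. In WT the sum went from 23.46 to 48.21 in Slc17a7 nuclei, and from 158.2 to 691.2 in Csf1r nuclei, taken as microglia. In KO the ratios of DMXAA to vehicle in these classes ran from 0.876 to 1.06. In a fit that kept the library as a block, no gene was called as responding differently in WT between the differentiating nuclei and Pdgfra nuclei (edgeR, 0 of 5738, 0%, with 227 at an unadjusted p under 0.05, and 0 by DESeq2) or mature nuclei (0 of 8652, 0%, with 389, and 0 by DESeq2). Without WT DMXAA library 1 or 3 there was 1 call against Pdgfra nuclei, and without WT vehicle library 1 or WT DMXAA library 4 there were 2 and 7 against mature nuclei. Microglia, which are far richer in these genes, could leave free RNA: 10 microglia markers summed to 6.47 per 100000 UMIs with vehicle and 10.1 with DMXAA in WT, and to 2.74 and 8.07 in KO, against 713.2 in Csf1r nuclei. The KO DMXAA value rested on library 2, at 33.26 against 1.571 to 3.585 in the other 3. In library 2, 1 nucleus held 19 of the 22 marker UMIs and had a doublet score of 0.88 without being called a doublet. The 5 fibroblast and choroid markers summed to 5.388 with vehicle and 12.57 with DMXAA in WT, from 20 and 41 UMIs, and to 4.107 and 6.992 in KO, with overlap in both. In WT the pooled astrocyte and neuron marker sums were lower with DMXAA, at 89.85 against 105.6 and 260.7 against 269.1. The mean of the neuron sum over libraries was higher with DMXAA, at 307.7 against 262.8, with library 3 far above the others. The endothelial and mural sum was 2.155 with vehicle and 2.76 with DMXAA, from 8 and 9 UMIs. The part of RNA from microglia or other cells in the result was not tested.

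In none of the other 14 lists did the DMXAA libraries lie apart from the vehicle libraries in either genotype. Of 14 MHC class I presentation genes, 9 were higher and 3 lower in WT with DMXAA, from 34 and 54 UMIs in all. B2m, the light chain of class I molecules, had 1 UMI with vehicle and 8 with DMXAA, 6 of them in library 1, and none in KO. The committed list stood at 3932 ± 505 per 100000 UMIs in WT vehicle and 3807 ± 352 in WT DMXAA, and at 6183 ± 1508 and 5931 ± 324 in KO (SD, n = 4 each). The myelin list stood at 1315 ± 123 and 1318 ± 340 in WT and at 1481 ± 218 and 1589 ± 169 in KO. The cholesterol list stood at 53.7 ± 6.67 and 59 ± 30.1 in WT and at 53.6 ± 18.3 and 52.8 ± 5.03 in KO. Each of these ranges overlapped within a genotype. Of 22 Wnt and BMP pathway genes, 7 were higher and 9 lower with DMXAA in WT, and 8 were higher and 8 lower in KO. Their sum stood at 94.1 ± 18.2 and 74 ± 14.7 in WT and at 98.7 ± 25 and 128 ± 16.2 in KO, with overlap in both. In the 4 of them that passed the filter the WT response lay below the KO response (median log2 difference -1.37), with 2 at an unadjusted p under 0.05 in edgeR and none called.

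Across all genes, no change with DMXAA passed the test. With edgeR on UMIs summed by library, 0 of 2350 genes (0%) were called in WT, where 72 fell under 0.05 without adjustment, and 0 (0%) in KO, where 98 did. The difference between the WT and KO responses gave 0 (0%) with 88. DESeq2 called 0 in each of the 3. KO vehicle libraries 1 and 2, with 8 and 7 nuclei, were not in these fits. None of the following was called. The 5 genes of lowest p with a positive value in the WT fit were Ddx60, Nrxn2, Cdh10, Zbtb16 and Apod, with log2 values of 4.92, 0.95, 0.94, 2.18 and 2.40, and the 5 with a negative value were Asrgl1, Colec12, Grik3, 2610037D02Rik and Gria3, from -0.92 to -2.19. Apod, a lipid carrier, rested on 2 libraries, with 34 and 21 UMIs there against 1 and 2 in the other DMXAA libraries. In KO those of lowest p were Lrch1, Egflam, Smurf2, Frmd5 and Parm1, at 0.94 to 3.71, and Gm13052, Rffl, Ip6k1, Rbm6 and Tgfa, at -0.81 to -1.35, with adjusted p of at least 0.931. Without KO vehicle library 3 the values of Egflam and Parm1 went from 3.71 to 6.32 and from 3.14 to 7.16, and without KO vehicle library 4 those of Gm13052 and Rffl went from -0.94 to -0.48 and from -1.32 to -0.39.

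Individual genes of low p could be followed by library. Zbtb16 and Asrgl1 were chosen for low p in the WT fit, so their lack of overlap in WT follows in part from that choice. Zbtb16, a zinc finger transcription factor, was at 12.78, 31.42, 17.29 and 24.45 CPM in WT vehicle and at 55.7, 107.6, 95.61 and 136.7 in WT DMXAA, without overlap (log2 value 2.18 ± 0.72, edgeR adjusted p = 1). In KO it ranged from 0 to 167.8 with vehicle and from 0 to 110 with DMXAA, with overlap. Asrgl1, an asparaginase, was lower with DMXAA in both genotypes: at 233.4 to 294 with vehicle and 55.7 to 172.1 with DMXAA in WT, and at 179.8 to 327.3 and 74.8 to 121 in KO, without overlap in either. Its log2 value in WT was -0.995 ± 0.307 (edgeR adjusted p = 1). Mbp was at 2262 to 3221 and 1893 to 4133 CPM in WT and at 2139 to 3950 and 3024 to 4147 in KO, with overlap in both.

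The last comparison set the 2 vehicle groups side by side. Of the KO vehicle libraries the fit held only 3 and 4. EdgeR called 0 of 2350 genes (0%), of which 247 were under 0.05 without adjustment, with a lowest adjusted p of 0.0609, while DESeq2 called 20, of which 19 were higher in KO. Dscaml1, Tnr and Malat1 were among these, with DESeq2 adjusted p of 0.000288, 0.0245 and 0.0381. With all 4 KO vehicle libraries in the fit edgeR called 26 genes, among them Dscaml1 (log2 difference 1.66, edgeR adjusted p = 0.000799), Tnr (0.71, edgeR adjusted p = 0.0253) and Malat1 (-1.73, edgeR adjusted p = 0.016). EdgeR called 2 without WT DMXAA library 1 and 5 without WT DMXAA library 3. Dscaml1, a cell adhesion gene, was at 1048, 1644, 1331 and 1553 CPM in WT vehicle and at 4674, 6319, 3656 and 3219 in KO vehicle, without overlap (log2 difference 1.34 ± 0.27, edgeR adjusted p = 0.0609). Tnr was at 9383 to 10330 in WT vehicle and 14270 to 17840 in KO vehicle, and Frmd4a at 7080 to 16810 and 10720 to 35320, with edgeR adjusted p of 0.228 and 0.317. Of 22 committed genes in the fit, 17 were higher and 5 lower in KO vehicle, with a median log2 difference of 0.41 against -0.01 over all genes. EdgeR called none of the 22 in this fit, but DESeq2 called Tns3, Fyn, Itpr2 and Tmem163, each higher in KO vehicle. With all 4 KO vehicle libraries edgeR called Tns3 and Fyn. The summed list ran from 3454 to 4601 per 100000 UMIs in WT vehicle and from 4102 to 7479 in KO vehicle, overlapping through KO vehicle library 3. The pooled nuclei differed in their mix of sub-stages, as 22 of 73 in WT vehicle and 6 of 41 in KO vehicle had no Enpp6 UMI (9 of 67 and 12 of 65 with DMXAA). Enpp6 is a gene of the rule and nuclei of 1 mouse are not replicates, so these counts are a description and were not tested. In nuclei with Enpp6 alone or with Bmp4, the committed list stood at 4942 per 100000 UMIs in WT vehicle (4181 to 7021 by library) and 6358 in KO vehicle (4826 to 7644), with overlap. The part of the sub-stages in the differences of single genes was not tested. Malat1, a nuclear noncoding RNA, was lower in KO vehicle, at 8987 to 27130 against 40740 to 57280 CPM (log2 difference -1.21 ± 0.38, edgeR adjusted p = 0.262). The other classes differed in the same direction for each of these genes, which was not tested there. From WT vehicle to KO vehicle, Malat1 went from 57390 to 13850 CPM in Slc17a7 nuclei and from 53070 to 13140 in Pdgfra nuclei. Dscaml1 went from 1278 to 2206 in Pdgfra nuclei, from 1169 to 2577 in mature nuclei and from 467.3 to 1124 in Slc17a7 nuclei. Frmd4a went from 199.3 to 425.7, from 328.6 to 592.2 and from 1079 to 2108 in the same 3 classes, and Tnr from 4264 to 5860, from 63.71 to 124.1 and from 602.1 to 979.8.

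The targeted gene could not be checked in these nuclei. Ifnar1 had 5 UMIs in WT vehicle, 4 in WT DMXAA, 1 in KO vehicle and 3 in KO DMXAA. In Pdgfra nuclei it was at 20.08 CPM with vehicle and 15.5 with DMXAA in WT and at 19.94 and 18.06 in KO. In mature nuclei it was at 21.12 and 19.18 in WT and at 20.22 and 13.05 in KO, and in Slc17a7 nuclei at 16.82 and 15.36 in WT and at 8.716 and 9.851 in KO. A 3′ count can lie outside the deleted part, which the sources used here do not give.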

How the data were processed

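Nuclei of the right hippocampus were sorted by DAPI and sequenced with droplet 3′ chemistry. The authors deposited UMI counts per gene and barcode for each library, made with Cell Ranger (3.1.0 per the labels) on mm10 with pre-mRNA counted (the file headers name a later version); no other normalization had been applied to the deposited counts. Barcodes with 200 to 4000 genes and at most 5% mitochondrial UMIs were kept. No doublet caller was used beyond the exclusion genes; an alternative removed called doublets (4.07% of the members, 4.44% of all kept nuclei). UMIs were summed per library, because nuclei of 1 mouse are not replicates, and 14 libraries with at least 10 nuclei were tested with edgeR's quasi-likelihood test (TMM, filterByExpr), without the 9 genes of the rule. A call needed a Benjamini-Hochberg adjusted p under 0.05 and an absolute log2 change over 0.1. Shares were compared by exact permutation over libraries. Only the edgeR fit of the differentiating nuclei alone was tested on simulated counts, with known changes in WT DMXAA. It recovered 37% of the changes of log2 1 and 13% of those of log2 -1, so most changes of this size would be missed. For log2 2 and -2 it recovered 100% and 75.9%. The simulation changed many genes at once, which eases the adjusted threshold, so these shares can be too high where few genes change. In the data the same fit did not call Ddx60 at a log2 value of 4.92. The absence of calls therefore does not exclude large changes. The fits with a second class and DESeq2 were not tested on simulated counts. Tools were edgeR 4.0.16, DESeq2 1.42.0, R 4.3.3 and scipy 1.17.1. Gene positions came from GENCODE M21 (GRCm38). Ratio intervals are exact binomial at 95% and cover counting error only.

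The members and gene lists were chosen with earlier results of these data known. Named genes were the 5 of lowest p in each direction of a DMXAA contrast, as none was called, the 4 genes with the most UMIs in each list, and Ifnar1, Ifnar2, Stat2, Irf9, Mbp and Malat1; others were chosen after their values were seen. Of 68 genes in the interferon list, 66 were analysed here. Some genes that the rule names are not reported here, although list sums and counts include them. Fewer nuclei of a type and less RNA per nucleus cannot be told apart in sums. The mice are separate animals, but library preparation batches are not given in the sources used here.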

Additional observations from a re-analysis of the deposited data

Results flagged for a closer look

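Within groups of 4 libraries, 8 values lay far from the other 3, out of 92 groups checked by Dixon's ratio, which chance alone would give in about 1 group of 20. In WT DMXAA library 3 the 11 neuron markers summed to 726.6 per 100000 UMIs (126.5 to 192.7 in the others). KO DMXAA library 2 had the most microglia marker UMIs, 33.26 per 100000 (1.571 to 3.585). KO DMXAA library 1 had 32.91 per 100000 of fibroblast and choroid markers (0 to 3.024) and 1308 of the lineage regulators (1160 to 1182). Of its 22 fibroblast and choroid UMIs, 1 nucleus with a doublet score of 0.76, not called a doublet, held 21. WT vehicle library 2 had the fewest endothelial and mural marker UMIs, 1.047 per 100000 (2.445 to 2.593). Another 3 values rest on libraries where the other 3 had no UMI, namely Stat2 at 35.96 and Irf9 at 11.99 CPM in KO vehicle library 3, and Ddx60 at 8.644, from 1 UMI, in WT vehicle library 3.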

How the results depend on the processing

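Of 78 values of nuclei shares and ratios under other settings, 70 kept their direction and 8 turned. None passed the threshold, which a lone difference could not reach (smallest adjusted p 0.171), so this says nothing of stability. The share in WT was 0.325 with nuclei thinned to 1000 UMIs, where 48 members were left, and ranged from -3.80 to 1.82 leaving out 1 library, with 1.295 without WT vehicle library 3. The ratio to Pdgfra nuclei in KO was -1.488 with at least 3 of the 4 genes. That between the vehicle groups was -1.697 with Pdgfra allowed, and ranged from -0.815 to 2.27 leaving out 1 library (-0.534 without WT vehicle library 1, -0.0535 without KO vehicle library 1, -0.815 without library 3).

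Of 129 counts of called genes, 111 were unchanged. With no filter on low counts edgeR called 2 genes in WT (Ddx60 and Apod), 1 in KO, 8 between the vehicle groups and 1 that responded unlike in Pdgfra nuclei. The KO gene was Htr2c, whose counts rested on KO DMXAA library 1. With libraries of at least 20 members (2 of WT vehicle, 1 of WT DMXAA, so the lone library was assumed to vary like the others) it called 12 in WT, 4 against Pdgfra nuclei and 7 against mature nuclei. With Pdgfra allowed it called 1 in WT (Ddx60), 14 between the vehicle groups and 5 against Pdgfra nuclei. Between the vehicle groups DESeq2 called 20 and every library with a member gave 26. Leaving out 1 library gave 0 to 5 calls between the vehicle groups (2 without WT DMXAA library 1, 5 without library 3), 0 to 1 against Pdgfra nuclei (1 without WT DMXAA library 1 or 3) and 0 to 7 against mature nuclei (2 without WT vehicle library 1, 7 without WT DMXAA library 4), and 0 in WT, KO and their difference. Where KO vehicle library 3 or 4 was left out, that arm had 1 library, assumed to vary like the other groups, so those counts say nothing of stability. Among named genes, Gria3 in WT turned to 0.10 with Pdgfra allowed. The cause was not tested. No KO count could be had from libraries of at least 20 members. No paired analysis was possible because replicate numbers follow accession order and pair no mice. Few nuclei limit every value: 2350 genes passed the filter, and 2 of the 66 interferon-stimulated genes.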

Other observations

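Htr2c, a serotonin receptor gene, had 77 UMIs in the differentiating nuclei of KO DMXAA library 1 and 1 in the other 3 libraries of that group together. Ttr, the choroid plexus transthyretin gene, had 22 of its 25 KO DMXAA UMIs in the same library. Nearly all fibroblast and choroid UMIs of that library, a list that includes Ttr, lay in 1 nucleus with a high doublet score, as given above. Htr2c and Ttr were picked for their values.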
